A study of Mus musculus with 2 samples.

Results

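The genes described here are 31 genes known from brown fat and from adipocytes in general, measured in whole heart. They were chosen by symbol and partly by the gap between the expected counts and TPM of the libraries described below, so the ratios between those libraries are a description without a test. All 31 were found among the 55536 annotated genes of the gene tables. Total RNA was sequenced from heart tissue of male B6CASTF1/J mice, the first-generation hybrid of the B6 laboratory strain and the wild-derived CAST strain, at 10 days of age. The data hold 1 group of 2 libraries, named replicate 1 and replicate 2 after their labels, with no treatment, allele or stage to compare. The labels number the males separately but give a single donor record for them, and the spread between these samples may therefore be technical. Libraries were made from 300 ng of RNA with ERCC spike-in RNAs added. Expected counts, with those of the ERCC RNAs included, summed to 38851514 for replicate 1 and to 37907585 for replicate 2.

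Brown adipocytes burn fatty acids to make heat, because Ucp1 in their mitochondria lets protons return to the matrix without making ATP. They share with white adipocytes a large lipid droplet programme, the regulators Pparg and Cebpa, and a set of secreted proteins such as adiponectin. Cardiac muscle also burns fatty acids and has its own lipid droplet and lipid synthesis genes, so only a part of an adipocyte gene list is restricted to fat. Depots of fat lie close to the heart and the great vessels in mice.

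The 31 genes together reached 828.52 TPM in replicate 1 and 229.71 TPM in replicate 2 (TPM is transcript abundance corrected for length and scaled to the same sum in each library). The median level of a gene on the list was 12.6 TPM in replicate 1 and 3.50 TPM in replicate 2, or 8.05 ± 6.43 TPM (SD, n = 2). At least 1 TPM was reached by 27 of the genes in replicate 1 and by 18 in replicate 2, and those 18 reached it in both. The list therefore divides by the level left in replicate 2. The genes above 1 TPM there included 7 of the 8 regulators and 4 of the 5 genes of fatty acid synthesis. Those below included all 4 secreted genes.

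**Figure D1:**
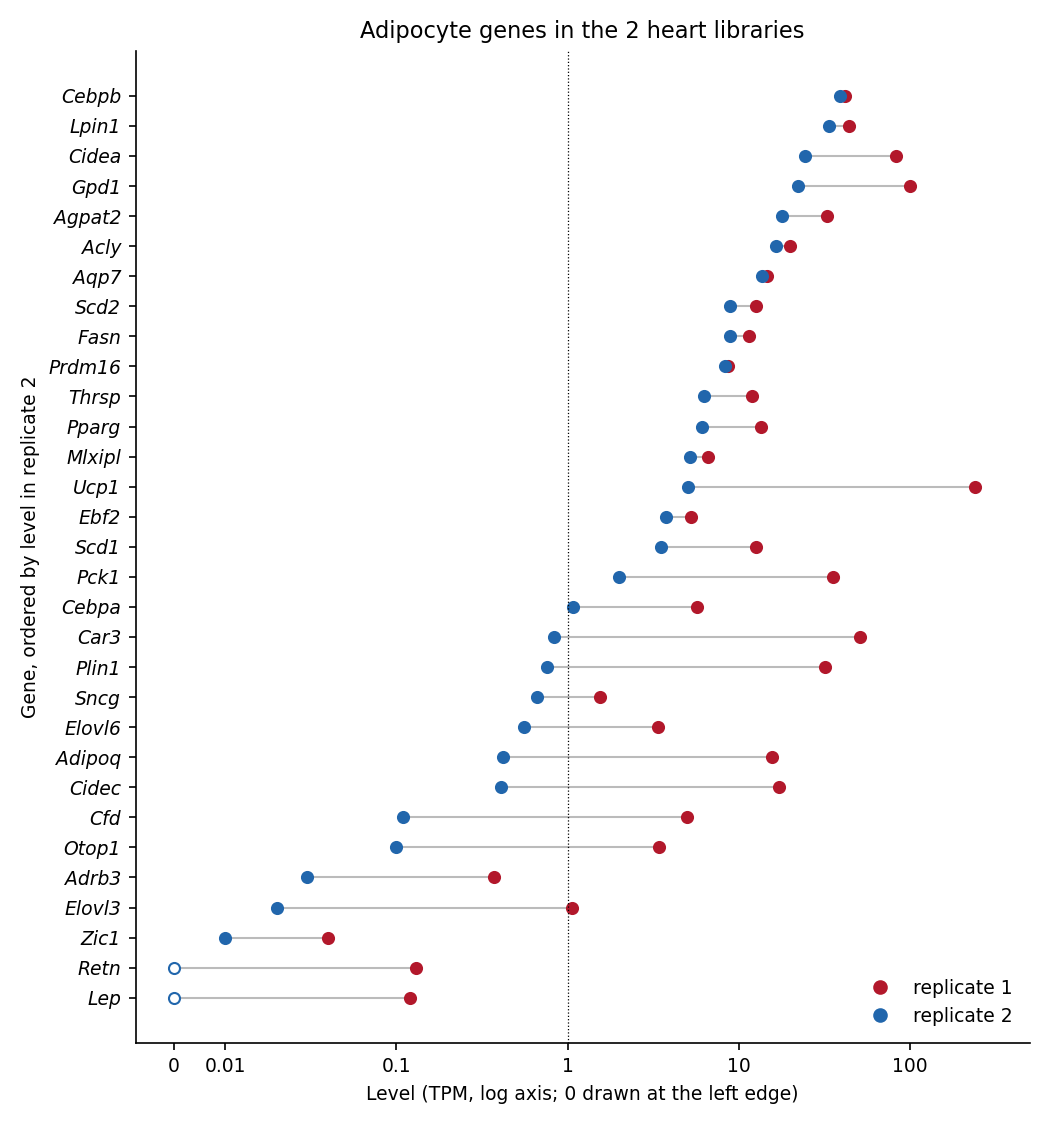
Level of each of the 31 genes in TPM (horizontal axis, log scale, with 0 drawn at the left edge) in replicate 1 (red) and replicate 2 (blue), ordered by the level in replicate 2. The dotted line marks 1 TPM: 27 genes lie at or above it in replicate 1 and 18 in replicate 2, and Ucp1 has the widest gap in TPM, from 239 to 5.02.

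For each gene the log2 ratio of replicate 2 over replicate 1 was taken from scaled expected counts, with an exact 95% interval that covers counting error only. A gene was counted as lower or higher when its libraries averaged 50 counts or more, differed by more than 2-fold and had an interval without 1. Of the 31 genes, 25 reached that mean count. Lower in replicate 2 were 13 of them, where 0.984% of all 13213 genes with that count were, and 0 were higher, where 0.802% of all genes were. In the other deposited quantification 13 were lower as well, where 0.931% of all 13535 genes were. By the interval alone, without the 2-fold limit, 21 of the 25 were lower, where 20.5% of all genes were, and 2 were higher, where 22.3% were. Since the list was chosen partly for this gap, nothing is read from these differences in shares. The median log2 ratio was -1.76 over the 28 genes with a mean count of at least 10, and 26 of these had a ratio below 0. The median of all 16741 genes with that count was 0.01. In bulk RNA, fewer cells of a type and less RNA per cell cannot be told apart.

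The 25 genes fell into 3 ranges of the ratio. In 8 genes, Car3, Ucp1, Otop1, Cfd, Plin1, Adipoq, Cidec and Pck1, the level was over 8-fold lower in replicate 2, and their summed level was 398.61 TPM in replicate 1 and 9.64 TPM in replicate 2. In 5 genes, Elovl6, Scd1, Cebpa, Gpd1 and Cidea, it was between 2-fold and 8-fold lower, with sums of 203.28 and 51.4 TPM. The other 12 genes, Pparg, Thrsp, Agpat2, Mlxipl, Scd2, Lpin1, Ebf2, Fasn, Acly, Aqp7, Cebpb and Prdm16, lay within 2-fold, with sums of 223.37 and 167.95 TPM. Each of these 12 held at least 3.76 TPM in replicate 2, whereas 6 of the 8 genes in the widest range held less than 1 TPM there. On either side of the 2-fold rule, the nearest counted gene was Cidea with a log2 ratio of -1.54, well past the limit, and the nearest gene within 2-fold was Pparg with -0.95, close to it.

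**Figure D2:**
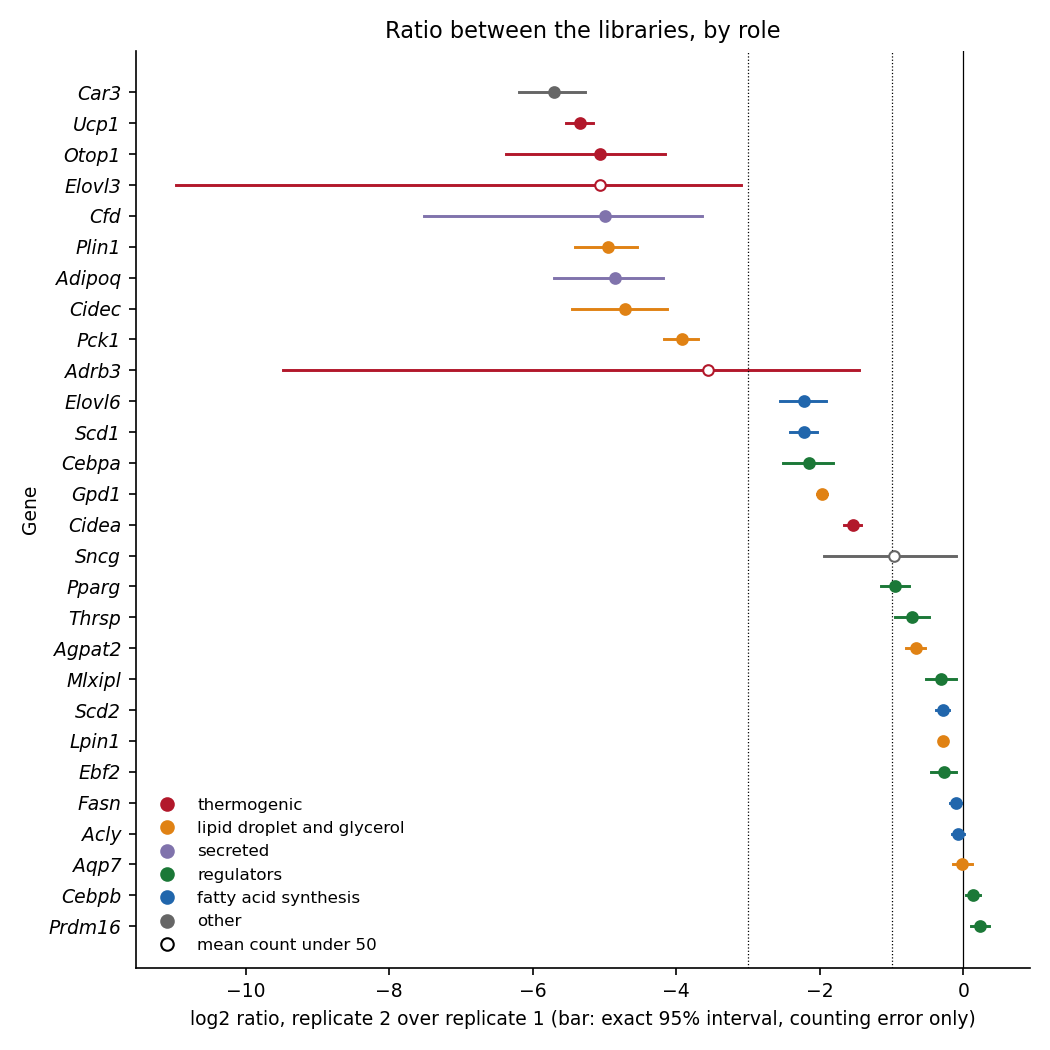
Log2 ratio of replicate 2 over replicate 1 (horizontal axis) for the 28 genes with a mean count of at least 10, coloured by role, with exact 95% intervals for counting error as bars and open points for genes with a mean count under 50. The dotted lines mark 2-fold and 8-fold lower: the ratios run from -5.70 for Car3 to 0.23 for Prdm16, the thermogenic gene Cidea lies at -1.54, and the regulators other than Cebpa lie right of the line for 2-fold.

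The thermogenic genes had a summed level of 326.1 TPM in replicate 1 and 29.38 TPM in replicate 2. Ucp1 (chromosome 8, 83290352 to 83298452, plus strand, mm10), the uncoupling protein that defines brown fat, had 11106 counts in replicate 1 and 247 in replicate 2. Its level was 239 TPM against 5.02 TPM, a log2 ratio of -5.35 (interval -5.54 to -5.17) or 40.7-fold lower in replicate 2. Replicate 1 was thus the library with high Ucp1, and replicate 2 still held several TPM. Ucp1 had the largest difference in TPM on the list, 234 TPM. The promoter window of Ucp1 from the RefSeq table (GRCm38.p6, chr8:83290098-83290397, plus strand) is shown because this gene had that largest difference. The window of Adipoq (chr16:23146286-23146585, plus strand) is shown as that of a general adipocyte gene in the same range. Capitals mark CCAAT in either orientation, which the Adipoq window holds 3 times and the Ucp1 window does not hold.

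Ucp1 promoter: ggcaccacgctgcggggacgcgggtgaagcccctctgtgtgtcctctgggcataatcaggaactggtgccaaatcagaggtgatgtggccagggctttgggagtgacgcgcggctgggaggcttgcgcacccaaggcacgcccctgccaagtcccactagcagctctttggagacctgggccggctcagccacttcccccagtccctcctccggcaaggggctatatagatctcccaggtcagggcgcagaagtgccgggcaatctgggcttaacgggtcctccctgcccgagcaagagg
Adipoq promoter: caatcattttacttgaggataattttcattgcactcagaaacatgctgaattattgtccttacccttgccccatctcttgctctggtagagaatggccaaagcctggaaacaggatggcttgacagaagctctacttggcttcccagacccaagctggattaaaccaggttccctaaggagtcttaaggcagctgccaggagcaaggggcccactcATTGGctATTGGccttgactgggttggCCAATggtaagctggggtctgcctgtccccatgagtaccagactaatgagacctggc

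Among all 32851 promoter windows of that table, 37.4% held CCAAT on either strand, and 8 of the 23 listed genes with a window did. By ratio at any count, these were 1 of 8 genes over 8-fold lower, 1 of 4 between 2-fold and 8-fold lower, and 6 of 11 within 2-fold. These ranges are not the sets named above, because they include genes at or near the floor, for which no fold is given. Lep is in the range over 8-fold lower, and Retn and Zic1 are in that between 2-fold and 8-fold. Zic1 was the 1 of 4 with CCAAT, so nothing is read from a difference between the ranges. Adipoq was the 1 gene with CCAAT in the range over 8-fold lower, so its window is not typical of that range. TATAAA was found in 13.6% of all windows and in 3 of the 23 genes, Cebpa, Cebpb and Pparg. The palindrome TTGCGCAA was found in 0.183% of all windows and, on the list, in Lep. A repeat of AGGTCA after any 1 base, the DR1 element of nuclear receptors, was found in 0.0396% of all windows and in 0 of the 23 genes. A match describes letters in this window and is not a binding site. Some genes had several windows, so the counts by gene and the shares by window have different bases.

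Cidea (chromosome 18, 67343604 to 67367785, plus strand), a droplet protein abundant in brown adipocytes, did not follow Ucp1 in size. It had 2526 counts in replicate 1 and 788 in replicate 2, or 82.2 and 24.2 TPM, and its log2 ratio was -1.54 (interval -1.66 to -1.42), 2.91-fold lower in replicate 2. In replicate 2 Cidea therefore exceeded Ucp1, at 24.2 against 5.02 TPM, while in replicate 1 Ucp1 was the higher of the pair. The remaining family member Cideb, best known from liver, was at 0.51 and 0.45 TPM.

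Otop1, a proton channel found in brown fat, had 314 counts against 8, or 3.42 and 0.10 TPM, and a log2 ratio of -5.07 (interval -6.38 to -4.16). Elovl3, an elongase of very long chain fatty acids that is induced in brown fat by cold, had 55 counts against 1, with the same ratio of -5.07 but a wide interval, -10.97 to -3.10. Adrb3, the adipocyte beta-adrenergic receptor through which noradrenaline activates brown fat, had 19 counts against 1 and a log2 ratio of -3.56 (interval -9.48 to -1.45). The mean counts of Elovl3 and Adrb3 were under 50, so neither was counted. Of the exon bases of Adrb3, 24.8% overlap an opposite-strand gene, and since no source says if reads were counted by strand, its counts are uncertain. Adrb1, the main beta receptor of cardiac muscle, held 9.49 and 8.96 TPM.

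The other uncoupling proteins stood at high levels in both libraries. Ucp2, which is broadly expressed, held 372 TPM in replicate 1 and 328 TPM in replicate 2, above Ucp1 in either library. Ucp3, the muscle form, held 26.2 and 40.8 TPM with a log2 ratio of 0.87 (interval 0.79 to 0.96), within 2-fold and with more in replicate 2. Neither had a ratio as low as that of Ucp1.

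The genes of the lipid droplet and of glycerol handling divided within their own group: 4 of 7 were lower in replicate 2 (0.984% of all genes) and the other 3 lay within 2-fold. Plin1 (chromosome 7, 79720218 to 79732903, minus strand), which coats the adipocyte droplet and restrains its lipases, had 1650 counts against 48, or 31.8 and 0.76 TPM, a log2 ratio of -4.95 (interval -5.41 to -4.55). Cidec, which fuses droplets into larger ones, had 625 counts against 21, or 17.2 and 0.41 TPM, a log2 ratio of -4.72 (interval -5.46 to -4.13). Both were under 1 TPM in replicate 2. The perilipins of muscle and other tissues behaved otherwise: Plin5, the form of oxidative muscle, held 69.2 and 69.8 TPM, Plin4 64.8 and 55.2 TPM, Plin2 54.9 and 51.3 TPM, and Plin3 34.2 and 37.2 TPM. Plin1 was therefore the lowest of the family in both libraries, at a level close to Plin3 in replicate 1 and far below it in replicate 2.

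Pck1, the cytosolic enzyme that feeds glycerol 3-phosphate and glucose synthesis from oxaloacetate, had 2666 counts against 159, or 35.6 and 1.99 TPM. Its log2 ratio was -3.92 (interval -4.17 to -3.69), a smaller gap than those of Ucp1 and Plin1. Its mitochondrial counterpart Pck2 was at 10.1 and 9.95 TPM. Gpd1 (chromosome 15, 99717515 to 99725005, plus strand), which makes glycerol 3-phosphate in the cytosol, had 8197 counts against 1894, or 99.3 and 22.1 TPM, with a log2 ratio of -1.97 (interval -2.05 to -1.90). Gpd1 had the second-largest difference in TPM on the list, 77.3 TPM. Of its exon bases, 13.0% overlap an opposite-strand gene. Gpd2, the mitochondrial enzyme of the same shuttle, was also lower in replicate 2, at 17.7 and 5.69 TPM with a log2 ratio of -1.16, while Gpd1l was at 16.7 and 13.6 TPM with a ratio of -0.02.

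The remaining members of this group differed less. Agpat2, which makes phosphatidic acid and is needed for adipose tissue to form, was at 32.9 and 17.9 TPM with a log2 ratio of -0.66 (interval -0.80 to -0.53). Lpin1, the phosphatidate phosphatase of muscle and fat, was at 44.1 and 33.5 TPM with a ratio of -0.28 (interval -0.33 to -0.22). Aqp7, a glycerol channel, was at 14.6 and 13.6 TPM with a ratio of -0.01 (interval -0.15 to 0.12). Levels above 13 TPM in both libraries set these genes apart from Plin1 and Cidec. The family members with the highest levels were Agpat3 at 121 and 108 TPM and the water channel Aqp1 at 105 and 96.5 TPM.

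The secreted genes together held 20.89 TPM in replicate 1 and 0.53 TPM in replicate 2. Adipoq (chromosome 16, 23146536 to 23158028, plus strand), which encodes adiponectin, had 524 counts against 16, or 15.6 and 0.42 TPM, a log2 ratio of -4.85 (interval -5.71 to -4.18). Cfd, which encodes the complement protease adipsin, had 123 counts against 3, or 5.01 and 0.11 TPM, a log2 ratio of -5.00 (interval -7.51 to -3.64). The 3 counts of Cfd in replicate 2 are the floor used here for detection. Lep, which encodes leptin, had 4 counts in replicate 1 and 0 in replicate 2, and Retn, which encodes resistin, had 3 and 0. These genes lie at or near the floor of 3 counts, equal to 0.0772 and 0.0791 CPM (counts scaled by the library total), so no fold is given for them. Leptin and resistin RNA are typical of white adipocytes.

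The regulators held 93.48 TPM in replicate 1 and 69.83 TPM in replicate 2, and 1 of the 7 with a mean count of at least 50 was lower (0.984% of all genes). That gene was Cebpa (chromosome 7, 35119293 to 35121928), a factor of late adipocyte differentiation, with 424 counts against 86, or 5.72 and 1.07 TPM, and a log2 ratio of -2.15 (interval -2.51 to -1.82). Cebpb (chromosome 2, 167688915 to 167690418), which acts early in the same programme and in many other tissues, was at 41.8 and 39.2 TPM with a ratio of 0.13 (interval 0.04 to 0.23). Its relatives Cebpd and Cebpg were at 2.59 and 3.53 TPM and at 8.13 and 10.4 TPM. Of the exon bases of Cebpb, 20.7% overlap an opposite-strand gene. Cebpa and Cebpb, which bind the same kind of site, thus had unlike ratios.

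Prdm16, a cofactor that directs precursor cells to brown fat and is also expressed in the heart, was at 8.66 and 8.27 TPM with a log2 ratio of 0.23 (interval 0.10 to 0.36). Prdm16 and Cebpb were the only genes of the list with an interval above 0, and with TPM in place of scaled counts their ratios changed sign, to -0.07 and -0.09. Ebf2, a factor that marks brown precursor cells, was at 5.24 and 3.76 TPM with a ratio of -0.27 (interval -0.44 to -0.10). Its relatives Ebf1 and Ebf3 were at 14.8 and 9.65 TPM and at 8.29 and 6.99 TPM. Zic1, a marker of classical brown fat between the shoulder blades, had 3 counts in replicate 1 and 1 in replicate 2, so no fold is given. Of the factors named for brown fat identity, Prdm16 and Ebf2 were within 2-fold between the libraries and did not share the gap of Ucp1. Zic1 was at the floor, with an interval of -7.16 to 2.20 that holds the ratio of Ucp1, so it shows neither a gap nor its absence.

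Mlxipl, the glucose-responsive factor ChREBP, was at 6.64 and 5.16 TPM with a log2 ratio of -0.31 (interval -0.52 to -0.11). Thrsp, a regulator of lipid synthesis that responds to thyroid hormone, was at 11.9 and 6.22 TPM with a ratio of -0.71 (interval -0.95 to -0.48). Both intervals lay below 0 and both ratios within 2-fold.

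Pparg (chromosome 6, 115360951 to 115490399, plus strand), the nuclear receptor at the head of adipocyte differentiation, had 697 counts in replicate 1 and 327 in replicate 2. Its level was 13.5 and 6.11 TPM and its log2 ratio -0.95 (interval -1.14 to -0.76), so the gene as a whole was within 2-fold by this scaling. It passed 2-fold with the total count (-1.06), with ERCC totals (-1.02) and with TPM (-1.13). Its transcripts did not share that ratio. The gene makes 2 well-known proteins from separate start sites: Pparg1, of 475 codons, in many tissues, and Pparg2, of 505 codons, mainly in adipocytes. Of the RefSeq windows of the gene (GRCm38.p6, plus strand), chr6:115362099-115362398 holds the start of a Pparg1 transcript at 115362292, and chr6:115421816-115422115 holds the Pparg2 start at 115422066. They are shown because the levels of the forms differ below, with TATAAA and CCAAT in either orientation in capitals. The third line is the part of the coding sequence that only the Pparg2 transcript has, 27 codons from its own start codon, which is in capitals.

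Pparg1 promoter: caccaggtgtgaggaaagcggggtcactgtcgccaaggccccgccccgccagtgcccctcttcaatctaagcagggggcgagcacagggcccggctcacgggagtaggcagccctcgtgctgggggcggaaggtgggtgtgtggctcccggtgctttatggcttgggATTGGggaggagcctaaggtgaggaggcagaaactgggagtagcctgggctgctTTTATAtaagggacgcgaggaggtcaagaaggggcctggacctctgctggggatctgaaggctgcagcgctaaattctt
Pparg2 promoter: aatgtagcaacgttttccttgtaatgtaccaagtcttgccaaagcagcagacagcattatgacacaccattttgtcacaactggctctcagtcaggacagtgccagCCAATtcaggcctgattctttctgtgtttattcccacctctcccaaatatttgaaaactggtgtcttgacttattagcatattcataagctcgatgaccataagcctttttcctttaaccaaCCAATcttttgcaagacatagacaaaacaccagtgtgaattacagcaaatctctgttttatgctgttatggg
Pparg2 own coding start: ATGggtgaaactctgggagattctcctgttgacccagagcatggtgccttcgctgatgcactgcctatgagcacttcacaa

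The Pparg2 transcript had 222.7 counts in replicate 1 and 18.86 in replicate 2, or 4.42 and 0.35 TPM, a log2 ratio of -3.38 (interval -4.17 to -2.73). The Pparg1 transcripts had 467.5 counts against 296.71, or 8.40 and 5.04 TPM, a log2 ratio of -0.51 (interval -0.73 to -0.30). The intervals of these forms did not overlap, and the share of Pparg2 in the gene's TPM was 32.8% in replicate 1 and 5.74% in replicate 2. In the other deposited quantification, Pparg2 was at 2.87 and 0 TPM and Pparg1 at 11.6 and 6.48 TPM, so the share of Pparg2 was 13.97% in replicate 1. By its ratio the adipocyte form thus lay in the range of the genes over 8-fold lower, though its interval also holds smaller gaps. The widely expressed form, with its transcripts summed, lay in the range within 2-fold. In the other quantification these transcripts differed: that with the start at 115362292 was at 3.61 and 0.28 TPM. The transcript with the start at 115360951 was at 7.99 and 6.21 TPM. Intervals of transcript counts do not cover the error of dividing reads between transcripts. The related receptors Ppara, the main form of cardiac muscle, and Ppard were at 21.9 and 16.6 TPM and at 12.01 and 9.96 TPM.

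**Figure D3:**
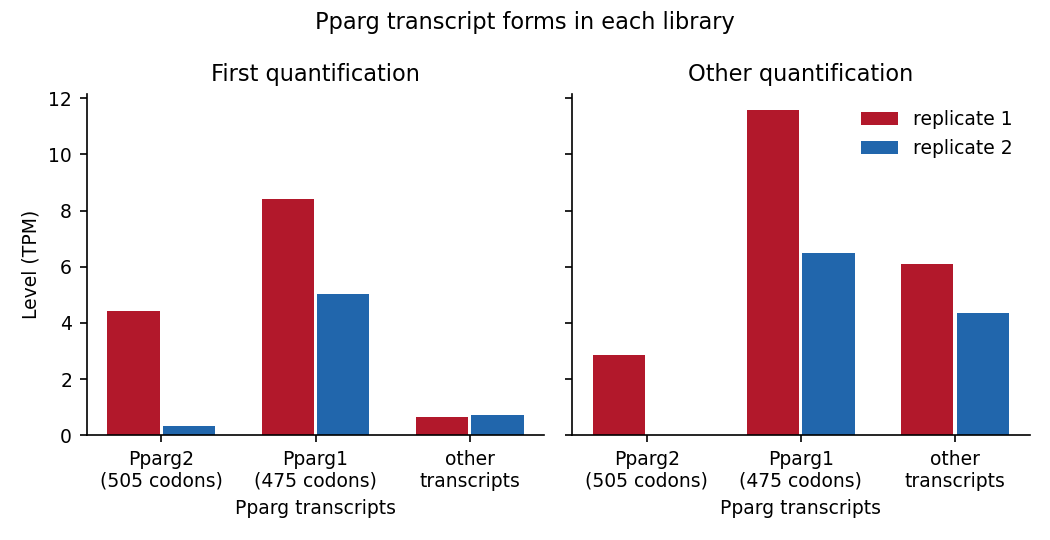
Level in TPM (vertical axis, from 0) of the Pparg2 transcript, the Pparg1 transcripts and the other transcripts of Pparg in replicate 1 (red) and replicate 2 (blue), in the first quantification (left) and the other (right), without error bars because each bar is 1 library. Pparg2 goes from 4.42 to 0.35 TPM on the left and from 2.87 to 0 TPM on the right, while Pparg1 keeps over 5 TPM in both libraries.

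Among the genes with a mean count of at least 50, 21 of 25 had the same leading transcript in both libraries in the first quantification and 18 in the other, and in 18 of 25 the quantifications named the same one. Lpin1 (chromosome 12, minus strand) was an example of a gene whose division depended on the quantification. Its transcript with the annotated start at 16610966 took 42.5% and 37.1% of the gene's TPM in the first and 56.3% and 51.4% in the other, while that with the start at 16589770 took 32.0% and 29.1% in the first and 2.85% and 3.98% in the other. For Cidec (chromosome 6, minus strand) the leading transcript started at 113435760 in replicate 1 and at 113435756 in replicate 2, the latter on 20.99 counts.

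Of the genes of fatty acid synthesis, 2 of 5 were lower in replicate 2 (0.984% of all genes). Scd1, the stearoyl-CoA desaturase of fat and liver, had 1433.28 counts against 279.08, or 12.6 and 3.50 TPM, and a log2 ratio of -2.22 (interval -2.41 to -2.03). Elovl6, which lengthens palmitate to stearate, had 502 counts against 97, or 3.39 and 0.56 TPM, and the same ratio of -2.22 (interval -2.56 to -1.91). The next 3 genes, which carry the earlier steps and the desaturase of other tissues, lay within 2-fold. Acly, which makes cytosolic acetyl-CoA, was at 19.9 and 16.5 TPM with a ratio of -0.07 (interval -0.16 to 0.01). Fasn, fatty acid synthase, was at 11.4 and 8.83 TPM with a ratio of -0.10 (interval -0.18 to -0.02). Scd2 was at 12.7 and 8.86 TPM with a ratio of -0.29 (interval -0.39 to -0.19).

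The desaturases therefore had unlike ratios within 1 family: Scd1 was lower in replicate 2, while Scd2 and Scd4 were within 2-fold. Scd4, a form known from the heart, was at 18.4 and 25.1 TPM with a ratio of 0.67 (interval 0.58 to 0.76). In replicate 1 Scd1 and Scd2 were at nearly the same level, and in replicate 2 Scd1 was the lower. Of the 31-base words in their annotated transcripts, 8.18% of those of Scd1 and 6.81% of those of Scd2 occur in another gene, most often Scd3, which was at 0.06 TPM in both. The elongases Elovl5 and Elovl1 were at 23.7 and 17.4 TPM and at 15.7 and 10.9 TPM.

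Car3 (chromosome 3, 14863512 to 14872523, plus strand), a carbonic anhydrase that is among the most abundant proteins of adipocytes and slow muscle, had the lowest ratio of the list. It had 2435 counts against 42, or 51.0 and 0.83 TPM, a log2 ratio of -5.70 (interval -6.19 to -5.28), 52.0-fold lower in replicate 2. Other carbonic anhydrases were at similar levels in both libraries: Car14 at 62.5 and 71.8 TPM, Car4 at 23.3 and 27.3 TPM and Car2 at 3.48 and 3.43 TPM. Sncg, gamma-synuclein, a protein of peripheral neurons and adipocytes, had 35 counts against 16, or 1.54 and 0.66 TPM, with a ratio of -0.96 (interval -1.94 to -0.10). Its mean count was under 50, so it was not counted.

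The log2 ratios of the 8 genes over 8-fold lower ran from -5.70 for Car3 to -3.92 for Pck1, and no value lay in all 8 intervals. With Pck1 left out and Elovl3 and Adrb3 added, the values from -5.41 to -5.28 lay in all 9 intervals, some of them wide. Among all genes with a mean count of at least 50, 25 were over 8-fold lower in replicate 2, or 0.189%, and 8 of these were on the list. Ordered from the lowest ratio upwards, Car3 ranked 6th, Ucp1 7th, Otop1 8th, Cfd 9th, Plin1 10th, Adipoq 12th, Cidec 13th and Pck1 20th of 13213. Of the other 17 genes, 5 were in the lists of other fat genes described next (Ffar4, Clstn3, Adig, Acvr1c and Dio2), and Bmp10 is a marker of atrial cardiomyocytes.

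**Figure D4:**
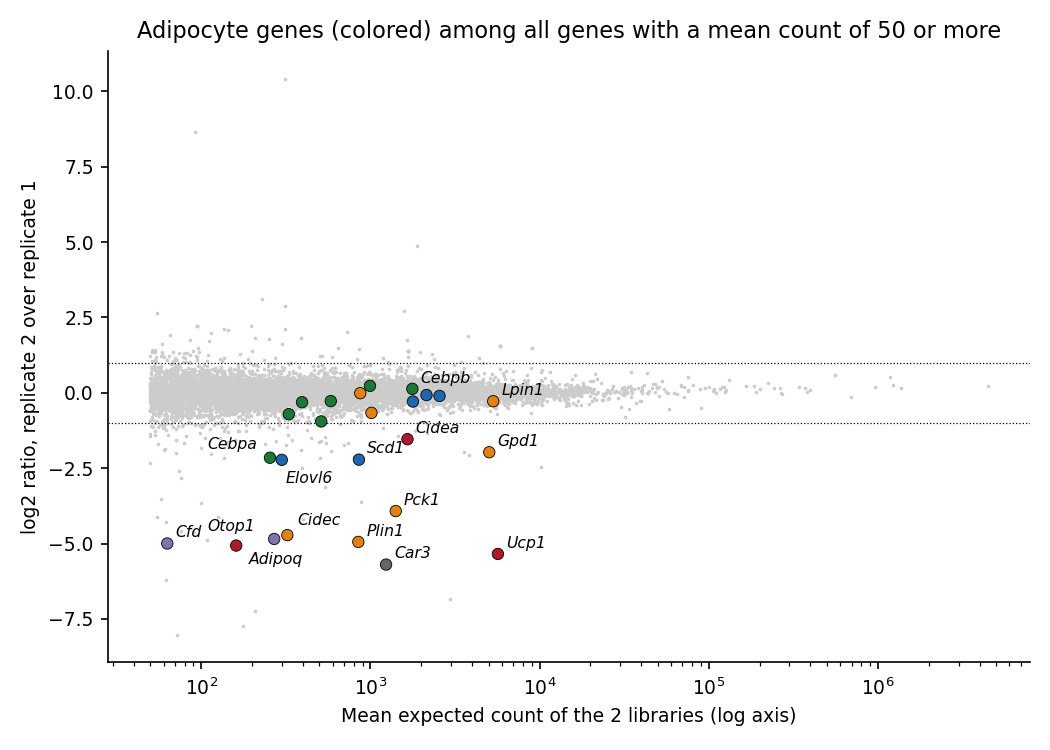
Log2 ratio of replicate 2 over replicate 1 (vertical axis) against the mean expected count of the libraries (horizontal axis, log scale) for all 13213 genes with a mean count of at least 50 (grey), with the listed genes coloured by role as in the plot of ratios by role. The dotted lines mark 2-fold: the 13 genes counted as lower lie below the lower line, from Cidea at -1.54 to Car3 at -5.70. They are among 130 of all 13213 genes counted as lower, and the other 12 listed genes lie between the lines.

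Other genes of brown fat, which were not on the list, had ratios from -4.59 to 0.87. Of 32 such genes, 26 had a mean count of at least 50, of which 5 were lower in replicate 2, where 0.984% of all genes were, and 0 were higher, where 0.802% were. The median log2 ratio over the 29 genes with a mean count of at least 10 was -0.11. The 5 were Clstn3, whose adipocyte form has a role on the lipid droplet, at 4.70 and 0.10 TPM (ratio -4.59), Dio2, which activates thyroid hormone in brown fat, at 5.68 and 0.56 TPM (-3.12), S100b at 3.22 and 0.38 TPM (-2.81), the amino acid transporter Slc36a2 at 10.0 and 1.53 TPM (-2.48), and Letmd1 at 18.6 and 5.74 TPM (-1.66). The highest genes of the set were mitochondrial genes that heart and brown fat share: Cox8b at 786 and 654 TPM, Cox7a1 at 534 and 458 TPM and Pdk4 at 370 and 505 TPM. Nrg4, which encodes a secreted factor of brown fat, had 73 counts against 6 and a ratio of -3.36 (interval -4.96 to -2.27), but its mean count was under 50. Ppargc1a, the coactivator of mitochondrial biogenesis, was at 92.0 and 89.3 TPM.

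Of 32 other adipocyte genes, 26 had a mean count of at least 50, of which 4 were lower in replicate 2 (0.984% of all genes) and 0 higher (0.802%). The median log2 ratio over the 30 genes with a mean count of at least 10 was -0.36. The 4 were the fatty acid receptor Ffar4 at 4.47 and 0.14 TPM (ratio -4.62), Adig, adipogenin, at 8.23 and 0.32 TPM (-4.29), Acvr1c, the activin receptor ALK7, at 1.86 and 0.04 TPM (-4.12), and Nnat, with 87 counts against 24 (-1.70). Below a mean count of 50, and so not counted, were Klb with 74 counts against 3 (-4.27), Lgals12 with 61 against 3 (-3.99), Rbp4 with 66 against 7 (-3.01) and Tshr with 17 against 0, each with an interval below 0. The highest were Cd36 at 696 and 640 TPM, Fabp4 at 666 and 433 TPM and Lpl at 520 and 478 TPM, which take up and carry fatty acids in endothelium and muscle as well as in fat. The 24 partner genes of lipid synthesis were all above a mean count of 50 and none was lower or higher by the rule for 2-fold. Their ratios ran from -0.76 to 0.38 with a median of -0.10. The most distant were Nr1h3 at -0.76, Slc25a1 at -0.56 and Lpin3 at -0.47, and the highest levels were those of Acsl1 at 357 and 324 TPM, Agpat3, and Acacb at 66.5 and 69.0 TPM.

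**Figure D5:**
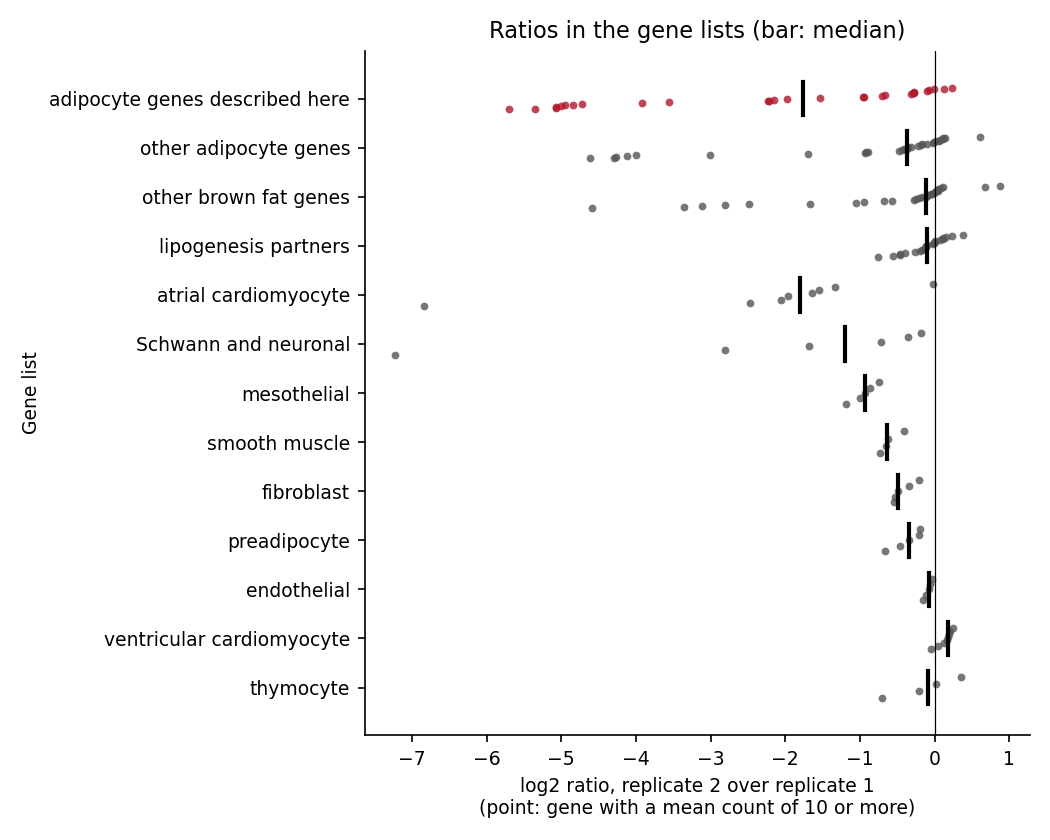
Log2 ratio of replicate 2 over replicate 1 (horizontal axis) for each gene with a mean count of at least 10 (points) in the list described here (red), in the other fat and lipid synthesis lists and in lists of cell type markers (grey), with the median of each list as a bar. The medians are -1.76 for the list described here, -1.80 for atrial genes, -1.20 for Schwann and neuronal genes and 0.18 for the cardiomyocyte genes labelled ventricular.

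Markers of adipocytes and of other cells were set beside these ratios. By the same rule, 0.984% of all genes with a mean count of at least 50 were lower. The brown adipocyte markers Ucp1, Cidea, Zic1, Lhx8 and Dio2 summed to 327.17 TPM in replicate 1 and 29.82 TPM in replicate 2, with 3 of 5 lower. Zic1 and Lhx8 were near 0 in both, the latter with 4 counts against 1. The general adipocyte markers summed to 97.63 and 20.31 TPM with 4 of 5 lower, and the fifth, Lipe, was at 28.1 and 18.6 TPM. Of the 6 white fat markers, Hoxc8 and Hoxc9 had 0 counts in both libraries and Lep and Retn were near the floor, so only Tcf21, at 13.6 and 12.2 TPM, and Wt1, at 5.25 and 4.68 TPM, had enough counts for the rule, and neither was lower. They made up most of the sums of 19.08 and 16.85 TPM, and neither is restricted to fat. Of the 4 beige fat markers only Cited1, at 6.95 and 6.54 TPM, had enough counts, and it was within 2-fold. The 5 preadipocyte markers all had enough counts, summed to 51.06 and 35.6 TPM, and 0 were lower.

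The tissue label was borne out by the 8 cardiomyocyte genes of the list labelled ventricular, not all of which are restricted to the ventricle. They summed to 35903 TPM in replicate 1 and 33558.3 TPM in replicate 2, with 0 lower. Atrial cardiomyocyte markers moved with the adipocyte genes: 7 of 8 were lower in replicate 2 (0.984% of all genes), their sums were 1560.51 and 294.4 TPM and their median ratio was -1.80. Bmp10 was the most distant of these, with 5857 counts against 46 and a ratio of -6.84. Markers of Schwann cells and neurons also moved with them, with 3 of 7 lower, sums of 19.69 and 3.89 TPM and a median of -1.20. S100b, counted above among the brown fat genes, is in that list too. Mesothelial markers had 1 of 5 lower, sums of 32.3 and 15.39 TPM and a median of -0.93. Smooth muscle markers had 0 of 4 lower with a median of -0.64, fibroblast markers 0 of 5 with -0.49, and endothelial markers 0 of 5 with -0.07. Markers of thymocytes, skeletal muscle and liver were low in both libraries, with sums of at most 3.29 TPM, 1.55 TPM and 2.11 TPM. Of the thymocyte markers Rag1 had 197 counts against 109, Cd8a 84 against 66 and Cd4 62 against 57. The part of any of these cells in the ratios of the adipocyte genes was not tested.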

How the data were processed

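Total RNA from heart was measured in 2 libraries of male mice. For each, gene and transcript tables of a first quantification and a transcript table of another were used. Per the labels and file headers, the authors used mm10 with GENCODE M21. Not given in the sources used here are program names, versions and strand settings. The authors' tables hold expected counts (estimated counts in the other quantification), which need not be whole because shared reads are divided. The deposited TPM and FPKM are scaled by the authors for length and depth, and FPKM was used here only as an alternative. The reference is that of B6, and reads of differing CAST alleles may be missed in either library.

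Rows that name no gene (26248, with 3.89 and 3 counts) and ERCC rows were left out of the TMM and DESeq2 scaling described below. The summed counts, the scaling by total count and the floor in CPM include them. ERCC RNAs took 0.576% and 0.562% of the counts. The other quantification totalled 38688448 and 37361816 counts.

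The counts were rounded, scaled with edgeR 4.0.16 TMM factors (R 4.3.3) and increased by 0.5 before the log2 ratio of replicate 2 over replicate 1 was taken. Intervals are exact 95% Clopper-Pearson intervals, and they and the floor of 3 counts cover counting error only, because PCR copies could not be told from molecules. With 1 library on each side no test across samples was possible. The ratio step was tested on simulated counts. Alternatives were DESeq2 1.42.0 size factors, the total count, ERCC totals, the other quantification, a prior count of 2, TPM with a pseudocount of 0.1, and other count minimums.

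The members, lists and rules were chosen with earlier results of these data known. Named are all 31 genes, their paralogs, genes with several transcripts over 10%, and of each further list the 3 highest and, among genes with a mean count of at least 50, the 3 with the largest ratio. Other list members named in the text, among them Nrg4, Klb, Lgals12, Rbp4, Tshr, Tcf21, Wt1, Cited1, Rag1, Cd8a, Cd4, Slc36a2, Letmd1, Nnat, Ppargc1a, Lipe and Bmp10, were chosen after their values were seen. Protein sequences were not used here.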

Additional observations from a re-analysis of the deposited data

How the results depend on the processing

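The number of listed genes lower in replicate 2, 13, became 13 with DESeq2 size factors and with the other quantification, 14 with the total count and with ERCC totals (Pparg was added), and 15 with a count minimum of 10 or with none. No share over all genes is given for DESeq2 size factors, the total count, ERCC totals or the lower count minimums. Nothing about the list is therefore read from these changes in number. The median log2 ratio of the list moved from -1.76 to -1.86 with the total count. The median of the other adipocyte genes moved from -0.36 to -0.47 with the total count, -0.43 with ERCC totals and -0.55 with TPM. With TPM, that of the other brown fat genes moved to -0.39 and that of the lipid synthesis partners to -0.30. The median over all genes shifted by -0.11 with the total count and by -0.21 with TPM, relative to the TMM scaling. Among single genes, 13 ratios moved by more than their counting interval with TPM, 6 with the total count and 1 with ERCC totals, and only Cebpb and Prdm16 (with TPM) and Retn and Zic1 (with the other quantification, on 3 counts or fewer) changed sign. Using 1 library at a time, the median level of the list ranged from 3.50 to 12.59 TPM. No paired analysis was possible because there is only 1 group. Ratios of genes with under 10 counts in replicate 2, such as Otop1, Elovl3, Cfd and Adrb3, are limited by depth, and 2 libraries do not show which of them is usual for this tissue.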
